A study of Mus musculus with 18 samples.

Results

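The genes described are 9 myeloid C-type lectin receptor genes of the mouse, Clec4a1, Clec4a2, Clec4a3, Clec4d, Clec4e, Clec4n, Clec5a, Clec7a and Clec12a. They were taken by symbol from the 23329 genes of the count files, where each symbol was found, and all 9 passed the filter on low counts that left 11942 genes. C-type lectin receptors are membrane proteins of myeloid cells that bind sugars and lipids of microbes and of dying cells through an outer lectin domain. Clec4n (Dectin-2), Clec4d (MCL) and Clec4e (Mincle) signal through the adaptor Fcer1g, and Clec5a (MDL-1) through the adaptor Tyrobp, also called DAP12, while Clec7a (Dectin-1) carries its own activating motif. All of these recruit the kinase Syk, and Card9 relays the signal further. Clec12a (MICL) and Clec4a2 (DCIR) carry inhibitory motifs that recruit phosphatases such as Ptpn6.

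RNA was sequenced from FDH cells, immortalised BALB/c fetal liver cells taken from bc-/- bIL-3-/- mice, which lack both signalling subunits of the IL-3 receptor. One line was transduced with bc and wild-type IL3Ra, the other with bc and IL3Ra carrying the change P248L, the Site 4 mutant of the series title. Untreated cells came from medium with doxycycline and mouse SCF at 100 ng/ml, and treated cells were washed and held for 2 or 5 days in IL-3 at 100 ng/ml. The IL-3 medium as described lists neither doxycycline nor SCF, so changes over time join the gain of IL-3 with the withdrawal of these agents. Cells were used at passages 10 to 12, with a single line per receptor, so effects of the receptor and of the line cannot be told apart. Whether replicates came from different cultures is not in the labels, and p-values then measure only the spread between libraries, which may be technical.

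The 6 groups held 3 libraries each, with 13844612 to 27181962 reads in genes. Replicates of every group differed beyond sampling noise. Over genes, chi-square divided by its degrees of freedom was 5.02 to 38.9 for most pairs, but 148 and 209 for the pairs with P248L untreated library 1, and 193 and 97.1 for those with P248L day 2 library 3. These 2 libraries stood apart, and results that turn on them are given with and without them. The unit of level is CPM, the TMM-scaled count of a gene per 1000000 reads in genes. Log2 fold changes are given with their SE, and a gene is said to rise, fall or differ at an adjusted p under 0.05 in the quasi-likelihood F test of edgeR fitted to all 18 libraries. In bulk RNA, fewer cells of a type and less RNA per cell cannot be told apart.

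The marker genes of the labelled cells moved with the groups. The summed level of 6 progenitor genes was 1978 to 2137 CPM in wild-type untreated libraries, 654 to 705 at day 2 and 126 to 162 at day 5, and 2146 to 2460, 1066 to 1277 and 215 to 267 CPM in the P248L groups, with none at 0. For 13 monocyte and macrophage genes it was 215 to 262, 471 to 572 and 2448 to 2773 CPM in the wild-type line and 131 to 221, 230 to 313 and 1660 to 1954 CPM in the P248L line. Among these, the complement genes C1qa, C1qb and C1qc had no reads in any P248L group or at wild-type day 2. C1qa and C1qc also had none in wild-type untreated libraries. For 12 neutrophil genes the sums were 124 to 152, 15212 to 18708 and 9405 to 15095 CPM in the wild-type line and 45.0 to 53.6, 142 to 205 and 28583 to 40748 CPM in the P248L line. The sum of 11 dendritic cell genes was at most 10.8 CPM before day 5, where it was 98.9 to 116 CPM in the wild-type and 11.2 to 13.2 CPM in the P248L line. The 8 basophil and mast cell genes summed to 553 to 729, 882 to 1270 and 2082 to 3040 CPM in the wild-type line and 650 to 733, 300.1 to 337 and 46.8 to 74.8 CPM in the P248L line. Of the 4 that passed the filter, 1 rose and 3 fell between day 2 and day 5 in the wild-type line (median -1.55), while the sum was higher at day 5. Hepatocyte genes summed to at most 14.3 CPM, with Alb and Ttr at 0 in every group, and the listed erythroid genes found in the files, without beta globin, to at most 0.853 CPM. The sums differ between the groups in which the receptors are compared, some in the same and some in the opposite direction, and their part in those results was not tested.

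All 9 genes lie on chromosome 6 (GRCm38, GENCODE M21). Clec4a1, Clec4a3, Clec4a2, Clec4n, Clec4d and Clec4e lie within a run of 9 coding genes at chr6:122921848-123289870, which spans 368 kb and also holds Clec4a4, Clec4b1 and Clec4b2. Clec12a and Clec7a are the outer genes of a run of 6 coding genes at chr6:129342691-129472779, with Clec12b, Clec1b, Clec9a and Clec1a between them. Clec5a lies apart at chr6:40574894-40585821. Clec4d and Clec4e are neighbours on opposite strands whose ends lie 6.52 kb apart. Of the 50-base words of Clec4a2 transcripts 6.69% also occur in other genes, most of them in Clec4a4, and the pseudogene Gm44132 overlaps Clec4a2 on the same strand, so its counts are less certain. For the other members the share was under 1%.

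The 150 bases before the start are shown for Clec4d and Clec4e, neighbours that parted by day 5, for Clec5a, which led the family at day 2, and for Clec12a and Clec7a, the ends of one cluster that moved apart in the wild-type line. They come from the RefSeq promoter table of GRCm38.p6, which held 8 of the 9 genes, and are written 5′ to 3′ on the strand of the gene. The table gives 1 start for Clec12a, which lies inside the annotated gene, downstream of its outermost RefSeq and GENCODE starts at 129349783 and 129342691. Capitals mark matches, on either strand, to GAGGAA (PU.1 core) or TTGCNNAA (C/EBP).
Clec4d (chr6:123261957-123262106, plus strand): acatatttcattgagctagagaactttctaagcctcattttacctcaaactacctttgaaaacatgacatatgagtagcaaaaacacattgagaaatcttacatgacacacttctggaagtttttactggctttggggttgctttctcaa
Clec4e (chr6:123289872-123290021, minus strand): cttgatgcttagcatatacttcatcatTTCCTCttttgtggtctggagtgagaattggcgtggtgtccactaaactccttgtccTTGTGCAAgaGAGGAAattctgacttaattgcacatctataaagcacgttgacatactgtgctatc
Clec5a (chr6:40585806-40585955, minus strand): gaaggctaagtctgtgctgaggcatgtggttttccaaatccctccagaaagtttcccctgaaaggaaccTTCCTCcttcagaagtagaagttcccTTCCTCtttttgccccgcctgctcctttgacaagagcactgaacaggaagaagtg
Clec12a (chr6:129350094-129350243, plus strand): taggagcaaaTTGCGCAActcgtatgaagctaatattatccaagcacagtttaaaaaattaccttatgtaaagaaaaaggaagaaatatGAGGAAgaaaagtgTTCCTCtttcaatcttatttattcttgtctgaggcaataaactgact
Clec7a (chr6:129472780-129472929, minus strand): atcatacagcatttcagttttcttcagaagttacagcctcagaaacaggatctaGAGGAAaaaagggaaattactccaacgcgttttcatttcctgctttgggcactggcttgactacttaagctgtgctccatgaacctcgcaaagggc
In the 250 bases before the start, GAGGAA was found 2 times in the windows of Clec4e, Clec5a and Clec12a and 1 time in those of Clec4d (at -240, outside the stretch shown) and Clec7a, and 23.3% of all 32851 promoters hold it. TTGCNNAA was found in the windows of Clec4e at -66 and Clec12a at -140, and 9.56% of all promoters hold it. Clec12a also held TGANTCA (AP-1) at -213, present in 6.75% of promoters. None of these 5 windows held TTCNNNGAA (STAT, 7.02% of promoters), the ISRE-like motif (GAAA, any 2 bases and GAAA, 2.98%) or the NF-kB-like motif (GGGA, any 4 bases and CC, 17.6%). Of the genes not shown, Clec4a2 held TTCNNNGAA at -42 and no GAGGAA, and Clec4a1 held the NF-kB-like motif at -75. GAGGAA was also found for Clec4a1 at -217 and -187, and for Clec4a3 at -50 from 1 of its listed starts. A match describes letters only.

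Most of the 9 genes rose in IL-3 medium, and the receptor that led the family by level per length changed at each time. In the wild-type line 4 of 9 rose and 2 fell at day 2, while 22.1% of all tested genes rose and 21.8% fell (43.9% in either direction). At day 5, 7 rose and 2 fell, against 35.7% and 37.4% of all genes (73.1% in either direction). The median log2 fold change of the 9 at wild-type day 5 was 4.71, and that of all tested genes was -0.05. Among P248L cells 6 rose and 2 fell at day 2, against 18.5% and 21.5% of all genes (40% together), and 8 rose and 1 fell at day 5, against 34.8% and 36.2% (71.1% together). The median of the 9 at P248L day 5 was 5.32, that of all genes -0.02. Clec4a1 and Clec4a3 passed the filter on low counts only through day 5 groups, so their rise by day 5 was fixed in advance. The wild-type median is the value of Clec4a1, which held 6 untreated reads. The members were also chosen with earlier results of these data known. Counts and medians of the 9 thus describe them and are no test against all genes. Libraries did not overlap for 7 of 9 at wild-type day 2 and all 9 at day 5 (64.2% and 83.2% of all genes), and for 8 and 9 in the P248L line (35.8% and 70.6%). The day 2 and day 5 comparisons of a line share its untreated libraries. Rises made up 50.4, 48.9 and 46.3% of all calls at wild-type day 2, wild-type day 5 and P248L day 2, and 36, 34.4 and 34.4% with no scaling beyond library size.

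**Figure D1:**
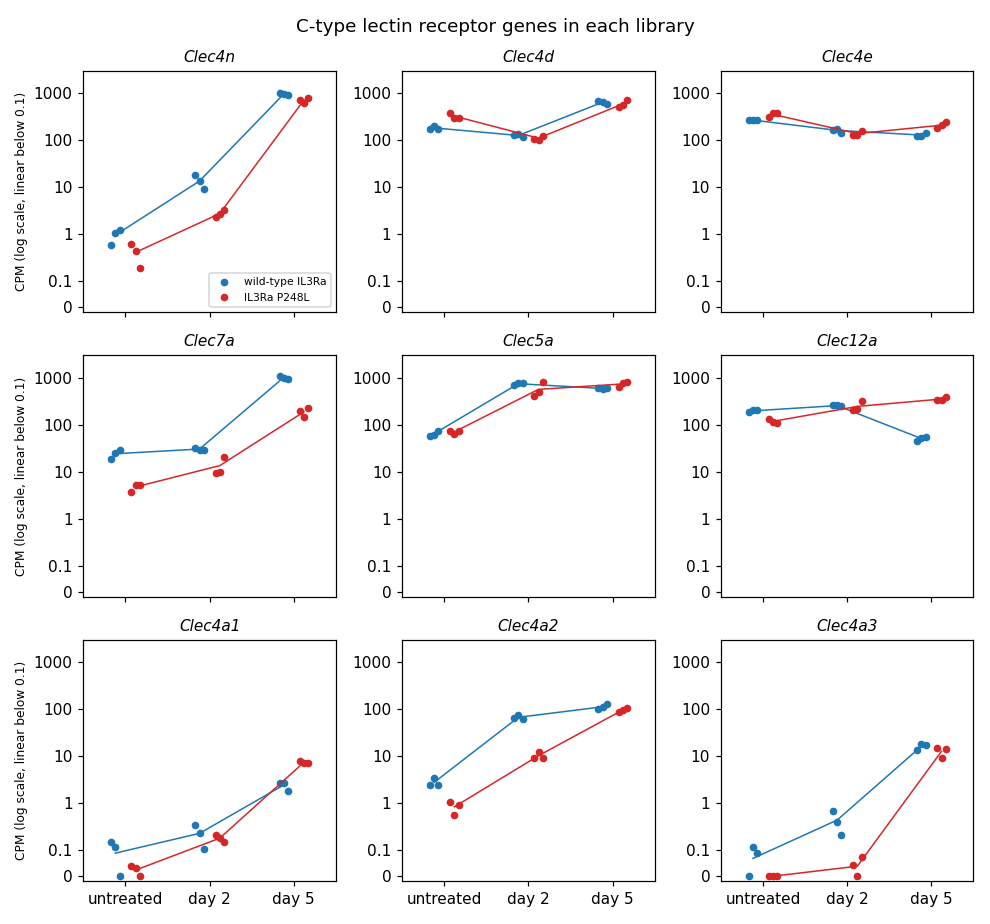
Level of each C-type lectin receptor gene in every library (CPM on a log axis that is linear below 0.1, 1 point per library, lines joining group means), by time in IL-3 medium and line. Clec4n rises from at most 1.20 CPM untreated to at least 615 CPM at day 5 in both lines, whereas the 3 wild-type Clec12a libraries drop to 46.0 to 54.6 CPM at day 5 while the P248L libraries stand at 329 to 393 CPM.

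Between day 2 and day 5, 6 members rose and 2 fell in the wild-type line, where 36% of all genes rose and 34.7% fell (70.7% together). Over the same interval 8 rose and none fell in the P248L line, all 9 fitted changes being above 0, against 37.1% and 33.1% of all genes (70.2% together). The member without a call was Clec5a (0.39±0.19, edgeR adjusted p = 0.072). The medians of the 9 were 2.35 and 3.23, those of all genes 0.02 and 0.06. The limit from the filter holds here too for Clec4a1 and Clec4a3. Libraries of the 2 times did not overlap for all 9 in the wild-type and 8 of 9 in the P248L line (82.6% and 70.6% of all genes). Of the wild-type calls 51% were rises, and 40.5% with no scaling.

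Clec4n, the gene of Dectin-2, an Fcer1g-coupled receptor for fungal mannans, had the largest fitted rise of the 9 in the wild-type line at day 5. Wild-type libraries 1 to 3 held 0.597, 1.04 and 1.20 CPM untreated, 17.9, 13.5 and 8.88 CPM at day 2 and 988, 971 and 908 CPM at day 5. P248L libraries held 0.601, 0.426 and 0.192 CPM untreated, 2.27, 2.65 and 3.24 CPM at day 2 and 728, 615 and 784 CPM at day 5. In each line every library of a later time lay above every library of the time before, and only the untreated groups of the 2 lines overlapped. The wild-type log2 fold change was 3.81±0.28 at day 2 and 9.95±0.32 at day 5 (edgeR adjusted p = 4.5e-09 and 2.0e-14). That of the P248L line was 2.61±0.35 and 10.65±0.34 (adjusted p = 1.7e-05 and 2.5e-14). At day 2 the P248L line stood 2.33±0.25 lower on the log2 scale (log2 fold change -2.33, adjusted p = 1.0e-06), and at day 5 the difference was -0.43±0.21 (adjusted p = 0.099), although the libraries did not overlap. Fitted on the compared groups alone, the day 5 difference passed (-0.45, adjusted p = 0.0029), as it did without both libraries that stood apart (-0.43, adjusted p = 0.036).

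Untreated Clec4n levels were near the limit of counting. The 3 P248L libraries together held 32 reads on the strand of the gene and 18 on the other strand, a share of 36%, while at day 5 the other strand held 0.371%. The fitted difference between the untreated lines, -1.13±0.39, passed at an edgeR adjusted p of 0.047. It did not pass without both libraries that stood apart (-1.46, adjusted p = 0.062), with reads of both strands (-0.56, adjusted p = 0.23), with the replicate block (-1.14, adjusted p = 0.058), or without any 1 of 14 of the 18 libraries (-1.47 to -0.89, adjusted p = 0.051 to 0.19). The 4 libraries without which it still passed were wild-type untreated 1, wild-type day 2 libraries 1 and 3, and P248L day 2 library 3. The difference also did not pass with RLE or upper-quartile scaling (adjusted p = 0.0503 and 0.0502) or with only the groups compared (-1.13, adjusted p = 0.14).

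Clec4d and Clec4e were the receptors with the highest levels per length before IL-3, and they moved apart by day 5. Clec4d, whose product MCL pairs with Mincle on the cell surface, measured 176, 201 and 169 CPM in the wild-type libraries before IL-3, 126, 137 and 114 CPM at day 2 and 670, 655 and 594 CPM at day 5. P248L libraries held 380, 295 and 297 CPM untreated, 104, 101 and 125 CPM at day 2 and 503, 550.3 and 708 CPM at day 5. In both lines the day 2 libraries were the lowest and the day 5 libraries the highest, without overlap. The log2 fold change at day 2 was -0.54±0.15 in the wild-type and -1.56±0.15 in the P248L line (edgeR adjusted p = 0.0062 and 3.7e-07). At day 5 it was 1.81±0.15 and 0.86±0.15 (adjusted p = 4.8e-09 and 4.7e-05). The P248L line had more Clec4d when untreated (0.83±0.15, adjusted p = 4.7e-04), with P248L untreated library 1 as the highest, and 0.70 (adjusted p = 7.1e-04) without both libraries that stood apart. At day 2 and day 5 the lines overlapped (-0.19±0.15 and -0.12±0.15, adjusted p = 0.35 and 0.53). The responses of the lines differed, by -1.02±0.21 at day 2 and -0.96±0.21 at day 5 (adjusted p = 0.0034 and 0.0021).

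Clec4e encodes Mincle, the receptor for mycobacterial cord factor. It held 272, 267 and 262 CPM in wild-type untreated libraries, 168, 176 and 141 CPM at day 2 and 121, 123 and 140 CPM at day 5. The P248L values were 311, 369.5 and 377 CPM untreated, 128, 129 and 155 CPM at day 2 and 179, 207 and 238 CPM at day 5. Untreated libraries were the highest in each line, and in the P248L line the lowest were those of day 2. Clec4e was the only member that fell in both lines at both times, by 0.73±0.13 at day 2 and 1.06±0.13 at day 5 on the log2 scale in the wild-type line (edgeR adjusted p = 2.0e-04 and 9.8e-07) and by 1.36±0.13 and 0.76±0.13 in the P248L line (adjusted p = 4.5e-07 and 5.0e-05). After day 2 it rose in the P248L line (0.60±0.13, adjusted p = 5.4e-04). The wild-type change after day 2 was -0.33±0.13 (adjusted p = 0.030), and the call was lost with DESeq2 (-0.23, adjusted p = 0.12) and with RLE scaling (-0.23, adjusted p = 0.13). It was also lost without wild-type day 2 library 1 or 2 or wild-type day 5 library 1 or 2 (-0.33 to -0.29, adjusted p = 0.060 to 0.096).

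At day 5 the P248L line had more Clec4e than the wild-type line (0.70±0.13, edgeR adjusted p = 2.7e-04), without overlap, and at day 2 the lines overlapped (-0.23±0.13, adjusted p = 0.19), with -0.32 (adjusted p = 0.035) without both libraries that stood apart. The untreated difference of 0.40±0.13 (adjusted p = 0.036) did not pass without any 1 of the 3 wild-type untreated libraries or P248L untreated library 2 or 3 (0.36 to 0.42, adjusted p = 0.052 to 0.10). It also did not pass with no scaling (0.32, adjusted p = 0.099) or with only the groups compared (0.41, adjusted p = 0.085). The day 2 responses differed by -0.63±0.18 (adjusted p = 0.038), a call lost without any 1 of 11 of the 18 libraries (-0.63 to -0.55, adjusted p = 0.051 to 0.11). The call was also lost with RLE scaling, no scaling, no filter on low counts or only the groups compared (adjusted p = 0.055 to 0.071). It still passed without any 1 of wild-type day 2 library 3, wild-type day 5 libraries 1 and 3, P248L untreated library 1, P248L day 2 library 3 and P248L day 5 libraries 1 and 3, and the difference was -0.81 (adjusted p = 0.0034) without both libraries that stood apart. For the day 5 responses the difference was 0.30±0.18 (adjusted p = 0.25). Per length, Clec4d exceeded its neighbour Clec4e by a ratio of 2.12±0.194 (SD, n = 3) in wild-type untreated libraries, 2.42±0.0933 at day 2 and 15.6±2.17 at day 5. For the P248L line the ratio was 2.91±0.768, 2.49±0.0583 and 8.74±0.496. The size of the ratio rests on exon lengths of 1.60 kb for Clec4d and 4.965 kb for Clec4e, an uncertainty that the SD does not cover. In CPM Clec4e was the higher in every wild-type untreated library. The change of the ratio between groups does not depend on the lengths.

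Clec7a encodes Dectin-1, the receptor for beta-glucans of fungal walls. Its wild-type level was 18.3, 24.5 and 29.3 CPM untreated, 32.4, 29.1 and 29.4 CPM at day 2 and 1083, 995 and 961 CPM at day 5. Its P248L level was 3.75, 5.15 and 5.25 CPM untreated, 9.55, 9.85 and 20.9 CPM at day 2 and 191, 148 and 224 CPM at day 5. At every time all P248L libraries lay below all wild-type libraries. Wild-type day 2 overlapped untreated (0.33±0.24, edgeR adjusted p = 0.29), and the rise came by day 5 (5.40±0.28, adjusted p = 1.0e-11). In the P248L line Clec7a rose at day 2 (1.50±0.27, adjusted p = 2.8e-04), by 1.05 (adjusted p = 0.0011) without library 3 of that group, and at day 5 by 5.32±0.29 (adjusted p = 2.7e-11). The P248L line stood at -2.36±0.27 untreated, -1.19±0.25 at day 2 and -2.43±0.25 at day 5 relative to the wild-type line on the log2 scale (adjusted p = 3.7e-06, 0.0012 and 3.2e-07), and at -1.64 at day 2 without P248L day 2 library 3.

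The difference of day 5 responses of Clec7a was -0.08±0.36 (edgeR adjusted p = 0.92), and the SE leaves room for a difference in either direction. With no scaling that estimate was 0.13. The day 2 responses differed by 1.17±0.36 (adjusted p = 0.049), a call lost without any 1 of 13 of the 18 libraries (0.71 to 1.26, adjusted p = 0.054 to 0.13). The lowest of these values was that without P248L day 2 library 3, and without both libraries that stood apart the difference was 0.57 (adjusted p = 0.20). Leaving out single libraries, the call held without wild-type untreated library 1, P248L untreated library 3, P248L day 2 library 1 or 2 or P248L day 5 library 2. The call was also lost with reads of both strands and with only the groups compared (adjusted p = 0.054 and 0.12). GENCODE lists Clec7a as a polymorphic pseudogene and RefSeq as protein coding.

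Clec5a, whose product MDL-1 signals through DAP12, rose at day 2 in both lines, with no later change past the threshold. Wild-type libraries held 58.3, 60.9 and 73.8 CPM untreated, 701, 767 and 774 CPM at day 2 and 597, 581 and 594 CPM at day 5. P248L libraries held 72.9, 63.2 and 74.8 CPM untreated, 405, 492 and 799.8 CPM at day 2 and 645, 760.3 and 812 CPM at day 5. All treated libraries lay above all untreated ones, and the untreated groups of the lines overlapped. The log2 fold change was 3.54±0.20 and 3.20±0.20 in the wild-type line at day 2 and day 5 (edgeR adjusted p = 1.8e-10 and 1.2e-10). For P248L cells it was 3.01±0.20 and 3.39±0.20 (adjusted p = 3.8e-09 and 9.0e-11).

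No difference of Clec5a between lines passed, at 0.13±0.19 untreated, -0.40±0.19 at day 2 and 0.32±0.18 at day 5 (edgeR adjusted p = 0.64, 0.10 and 0.17). The values that use P248L day 2 moved with library 3 of that group, its highest. Without it the lines differed at day 2 (-0.74, adjusted p = 5.3e-04), as they did with no scaling (-0.46, adjusted p = 0.034). The day 2 responses then differed (-0.86, adjusted p = 0.0052, against -0.53±0.26 and adjusted p = 0.23 with it). Without it Clec5a also rose from day 2 to day 5 in the P248L line (0.72, adjusted p = 1.9e-04). The day 5 line difference and the wild-type change after day 2 (-0.34±0.18, adjusted p = 0.11) do not use that group. Their estimates stayed at 0.32 and -0.34 without library 3, though both passed (adjusted p = 0.031 and 0.016). Both also passed with no scaling (0.44 and -0.61, adjusted p = 0.030 and 0.0026) and with only the groups compared (0.31 and -0.34, adjusted p = 0.022 and 0.0013). The wild-type change passed without P248L day 2 library 1 as well (-0.36, adjusted p = 0.040). With the replicate block, the P248L rise after day 2 (0.41, adjusted p = 0.027) and the day 2 difference between lines (-0.44, adjusted p = 0.040) passed. The value for the day 5 responses was 0.20±0.26 (adjusted p = 0.63).

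**Figure D2:**
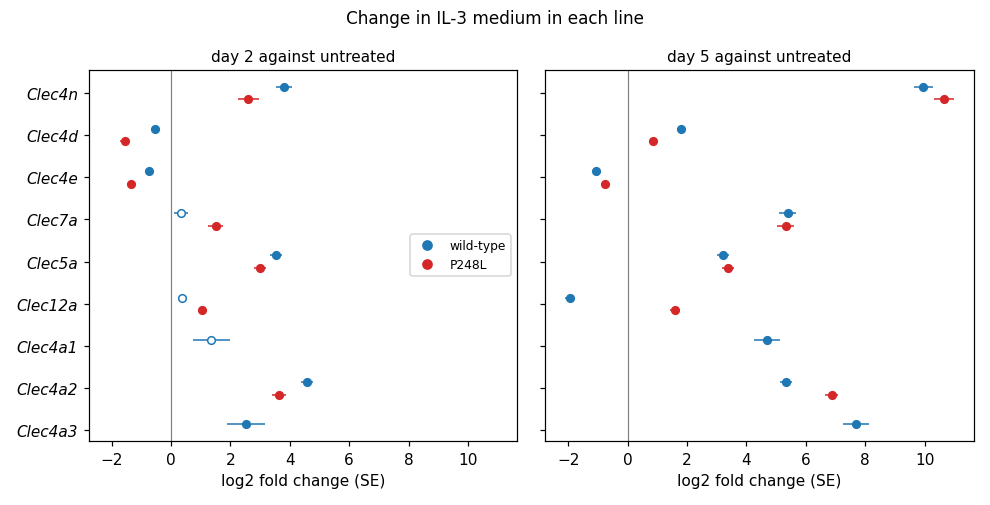
Log2 fold change of each gene against untreated at day 2 and day 5, with the SE as bars, in the wild-type (blue) and P248L (red) line; filled points passed an adjusted p of 0.05, and values resting on a group with 3 or fewer reads (Clec4a1 and Clec4a3 in the P248L line) are not drawn. At day 5 the Clec12a points lie on opposite sides of 0, at -1.95 and 1.58, while those of Clec7a lie at 5.40 and 5.32.

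Clec12a, an inhibitory receptor for uric acid crystals, moved in opposite directions in the lines by day 5. Wild-type libraries held 182, 203 and 206 CPM untreated, 257, 258 and 250.3 CPM at day 2 and 46.0, 51.9 and 54.6 CPM at day 5. P248L libraries held 133, 114 and 106 CPM untreated, 203, 212 and 320.2 CPM at day 2 and 329, 335 and 393 CPM at day 5. The wild-type day 5 libraries were the lowest of all 18, and the P248L day 5 libraries the highest. In the wild-type line Clec12a fell by 1.95±0.16 on the log2 scale at day 5, and in the P248L line it rose by 1.58±0.15 (edgeR adjusted p = 3.4e-09 and 6.0e-08). The difference of these responses was 3.53±0.22 (adjusted p = 4.4e-09), the largest fitted value of the 9. Before IL-3 the P248L line had less (-0.74±0.15, adjusted p = 0.0019), and at day 5 more (2.79±0.16, adjusted p = 2.4e-10).

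At day 2 the lines overlapped in Clec12a (-0.06±0.15, edgeR adjusted p = 0.80), and the estimate changed sign with DESeq2 or RLE factors, while without both libraries that stood apart it was -0.30 (adjusted p = 0.023). P248L cells gained Clec12a at day 2 (1.05±0.15, adjusted p = 3.8e-05), by 0.82 without library 3 of that group. The wild-type day 2 change was 0.37±0.15 (adjusted p = 0.055), and it passed with the replicate block (0.38, adjusted p = 0.046) and without P248L untreated library 1 or 3, any 1 P248L day 2 library or both that stood apart (0.37 to 0.38, adjusted p = 0.0017 to 0.047). It also passed with DESeq2 (0.39, adjusted p = 0.043) and with only the groups compared (0.36, adjusted p = 0.0022). The difference of day 2 responses was 0.68±0.21 (adjusted p = 0.054). It passed without both libraries that stood apart (0.54, adjusted p = 0.018) and without P248L untreated library 1 or P248L day 2 library 1 or 2 (0.78 to 0.81, adjusted p = 0.015 to 0.042). It also passed with DESeq2 and with RLE, upper-quartile or no scaling (0.67 to 0.73, adjusted p = 0.012 to 0.049). From day 2 to day 5 Clec12a fell in the wild-type line (-2.33±0.16, adjusted p = 5.0e-10). It rose in the P248L line (0.52±0.15, adjusted p = 0.0050), a call lost without P248L day 2 library 1 or 2 (0.34 and 0.37, adjusted p = 0.060 and 0.061). That call was also lost with only the groups compared (0.46, adjusted p = 0.053).

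Per length, Clec12a exceeded Clec7a, at the other end of the cluster, by a ratio of 4.02±0.692 (SD, n = 3) in wild-type untreated libraries and 4.03±0.232 at day 2. At wild-type day 5 the ratio was 0.0241±0.0035, with Clec7a far above Clec12a. P248L ratios were 12.4±3.94 untreated, 9.24±1.67 at day 2 and 0.912±0.145 at day 5. Their size rests on exon lengths of 5.53 kb for Clec12a and 2.64 kb for Clec7a, and their change between groups does not. The coding genes between them stayed low, with Clec12b at most 0.0893 CPM, Clec1a at most 0.0436 CPM, Clec9a at most 1.20 CPM and Clec1b at most 3.40 CPM as a group mean.

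Clec4a2, the inhibitory receptor DCIR, rose at both times in both lines. Wild-type libraries held 2.49, 3.40 and 2.44 CPM untreated, 63.6, 75.4 and 63.2 CPM at day 2 and 102, 109.5 and 127 CPM at day 5. P248L libraries held 1.05, 0.557 and 0.897 CPM untreated, 9.35, 12.2 and 9.26 CPM at day 2 and 85.9, 96.6 and 107 CPM at day 5. The lines did not overlap untreated or at day 2, where the wild-type line was higher, and overlapped at day 5. Wild-type log2 fold changes were 4.59±0.20 at day 2 and 5.33±0.20 at day 5 (edgeR adjusted p = 4.4e-12 and 1.4e-13). P248L log2 fold changes were 3.64±0.22 and 6.87±0.23 (adjusted p = 1.5e-09 and 4.0e-14). The difference between the lines was -1.76±0.23 untreated, -2.71±0.18 at day 2 and -0.22±0.16 at day 5 (adjusted p = 2.8e-05, 1.3e-09 and 0.28). The day 5 responses differed by 1.54±0.29 (adjusted p = 6.4e-04). For the day 2 responses the difference was -0.95±0.30 (adjusted p = 0.054), which passed without wild-type untreated library 2, P248L untreated library 2 or P248L day 2 library 2 (-1.21 to -1.09, adjusted p = 0.021 to 0.037). It also passed with DESeq2 (-0.90, adjusted p = 0.037).

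Clec4a3 and Clec4a1, relatives of Clec4a2 in the same run of genes, had few reads before day 5 and passed the filter only through the day 5 groups. For Clec4a3 the wild-type groups held 5, 27 and 792 reads over 3 libraries at the 3 times, or 0.0683±0.0607, 0.436±0.246 and 16.3±2.18 CPM (SD, n = 3). The P248L groups held 0, 2 and 664 reads, with 14.6, 9.36 and 14.2 CPM in the day 5 libraries. In the wild-type line it rose by 2.53±0.65 at day 2 and 7.68±0.45 at day 5 on the log2 scale (edgeR adjusted p = 0.0051 and 2.1e-10). P248L levels were at least 319-fold higher at day 5 than untreated, taking a floor of 3 reads over the untreated group, and 355 times the day 2 level, with a counting interval of 97.8 to 2935. At day 2 the wild-type level was 12.3 times that of the P248L line (counting interval 3.08 to 106, edgeR adjusted p = 0.0035). At day 5 the lines overlapped (-0.35±0.26, adjusted p = 0.30). These intervals, at a level of 0.95, cover counting error only.

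For Clec4a1 the wild-type groups held 6, 14 and 120 reads, or 0.0884±0.0783, 0.228±0.122 and 2.44±0.519 CPM (SD, n = 3). The P248L groups held 2, 10 and 379 reads, or 0.0234±0.0204, 0.179±0.0302 and 7.41±0.519 CPM. All P248L day 5 libraries lay above all wild-type day 5 libraries (1.60±0.26 on the log2 scale, edgeR adjusted p = 7.6e-05), so that Clec4a1 and Clec4a3 differed in which line stood higher at day 5, with the Clec4a3 difference not past the threshold. In the wild-type line Clec4a1 rose by day 5 (4.71±0.44, adjusted p = 2.2e-08). Its day 2 change there was 1.35±0.62 (adjusted p = 0.089), which passed without wild-type day 2 library 3 (1.68, adjusted p = 0.043). The P248L day 5 level was 273 times the untreated level (counting interval 75.0 to 2260), and the day 2 level 6.73 times (1.44 to 63.2, edgeR adjusted p = 0.021). The day 2 call was lost without P248L untreated library 2 or P248L day 2 library 1 (adjusted p = 0.051 and 0.059). The difference of day 5 responses passed (adjusted p = 0.026), but not without wild-type untreated library 1 or 2 or P248L untreated library 2 (adjusted p = 0.055 to 0.13), and its fitted size rests on the 2 untreated P248L reads.

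**Figure D3:**
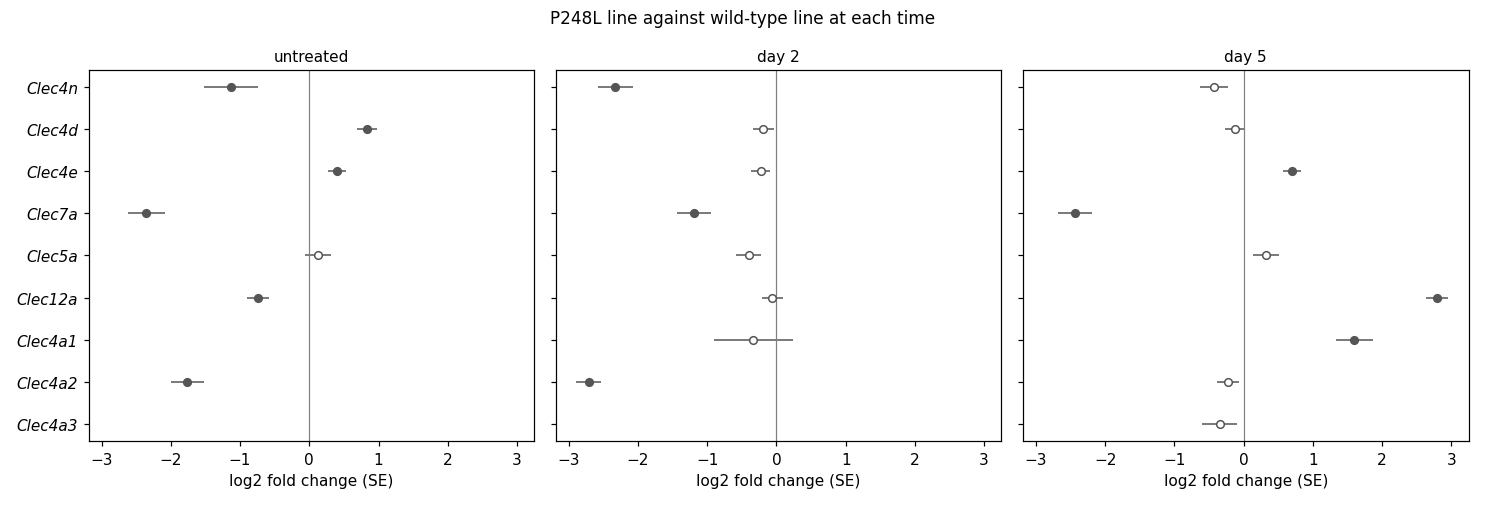
Log2 fold change of each gene in the P248L line against the wild-type line, with the SE as bars, untreated, at day 2 and at day 5; filled points passed an adjusted p of 0.05, and values resting on a group with 3 or fewer reads are not drawn. Clec7a lies below 0 in all 3 panels, at -2.36, -1.19 and -2.43, while Clec12a is at -0.74 untreated and at 2.79 by day 5.

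Between the lines, 2 of 9 genes were higher and 4 lower in untreated P248L cells, where 10.3% of all tested genes were higher and 11.3% lower (21.7% together). That background is itself unsteady: of the 2587 genes behind it, 1563 passed without wild-type untreated library 1, 1524 without library 3, 1686 without P248L untreated library 1 and 4535 without P248L untreated library 3. Higher genes made up 47.7% of them, and 35.8% with no scaling. At day 2 none of the 9 was higher, all fitted differences being below 0, and 4 were lower in the P248L line (Clec4n, Clec4a2, Clec4a3 and Clec7a), against 15.5% and 20.3% of all genes (35.8% together). Without both libraries that stood apart 7 of 9 differed, while the shares of all genes given here are those of the fit to all 18 libraries. At day 5, 3 were higher (Clec12a, Clec4a1 and Clec4e) and 1 lower (Clec7a), against 22.8% and 22.7% (45.5% together). Libraries of the lines did not overlap for 5 of 9 genes untreated, 4 at day 2 and 6 at day 5 (34.3%, 46.3% and 65.9% of all genes). Clec7a was lower in the P248L line at all 3 times, and no other member kept 1 direction past the threshold throughout.

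The day 2 responses differed between lines for 3 of 9 genes (Clec7a, Clec4d and Clec4e), where 3.05% of all genes had a higher and 6.5% a lower response in the P248L line (9.55% together). Only 1 of 9 passed without wild-type untreated library 3, wild-type day 2 library 1 or 2, or wild-type day 5 library 2, and 5 passed with DESeq2. The shares of all genes given here are those of edgeR on all 18 libraries. With 1 library left out, the 1140 genes of that background ranged from 788 to 1915. They became 1872 without P248L untreated library 3 and 1915 without P248L day 2 library 1. The day 5 responses differed for 4 of 9, against 14.7% higher and 12.2% lower among all genes (26.9% together). Clec12a, Clec4a2 and Clec4a1 had the higher response in the P248L line and Clec4d the lower. Of all these calls 54.6% were higher, and 72.7% with no scaling.

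Levels of different genes were compared per length, as CPM per kb of annotated exons. The lengths were 1.60 kb for Clec4d, 4.965 kb for Clec4e, 1.42 kb for Clec4n, 3.84 kb for Clec5a, 2.64 kb for Clec7a and 5.53 kb for Clec12a. The annotation behind the counts is not known, and the order of genes depends on these lengths. Untreated cells were led by Clec4d, at 114±10.7 CPM per kb in the wild-type line and 203±30.4 in the P248L line (SD, n = 3), which was 49.3% and 64.0% of the sum over the 9 genes. At day 2 Clec5a led in both lines, with 195±10.5 and 147±54.0 CPM per kb, or 49.1% and 48.5% of the sum. At day 5 Clec4n led with 673±29.8 and 499±60.8 CPM per kb, or 39.6% and 39.0%. By mean CPM, without lengths, Clec5a also led at day 2, but the other leaders differed. Untreated, Clec4e lay above Clec4d (267 against 182 CPM in the wild-type and 353 against 324 CPM in the P248L line). At day 5 Clec7a lay above Clec4n in the wild-type line (1013 against 956 CPM). Clec5a did so in the P248L line (739 against 709 CPM). Clec4n had made up 0.287% of the sum in untreated wild-type and 0.0892% in untreated P248L libraries. Clec7a took 22.6% of the sum at wild-type day 5 and 5.52% at P248L day 5. The sum itself was 231±11.6, 396±15.8 and 1698±68.3 CPM per kb in the wild-type line at the 3 times and 316±26.2, 299±79.3 and 1283±156 in the P248L line.

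**Figure D4:**
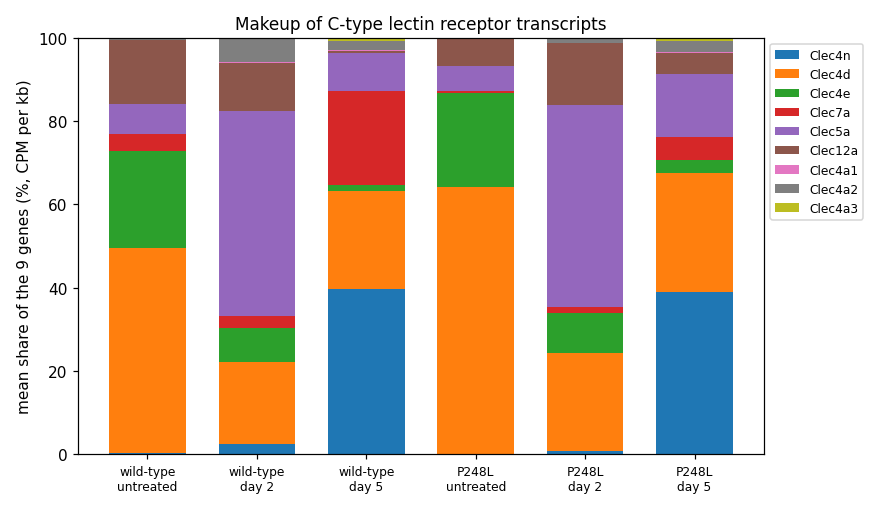
Mean share of each gene in the summed level of the 9 genes (percent of CPM per kb, n = 3 libraries per group), for both lines at the 3 times. Clec4d is the largest share untreated (49.3 and 64.0%), Clec5a at day 2 (49.1 and 48.5%) and Clec4n at day 5 (39.6 and 39.0%), and Clec7a is larger in the wild-type than in the P248L line at day 5 (22.6 and 5.52%).

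The genes that carry the signals of these receptors mostly rose by day 5. Of 21 listed signalling genes, all tested, 17 rose and none fell at wild-type day 5, where 35.7% of all genes rose and 37.4% fell. At P248L day 5, 18 rose and none fell, against 34.8% and 36.2% (medians 1.28 and 1.16 for the list, -0.05 and -0.02 for all genes). By edgeR at an unadjusted p under 0.05, 1 gene fell at wild-type day 5 and none at P248L day 5, and by DESeq2 none fell. At day 2, 6 rose and 1 fell in the wild-type line, against 22.1% and 21.8% of all genes (43.9% together). In the P248L line 5 rose and 4 fell, against 18.5% and 21.5% (40% together). The day 2 medians of the list were 0.22 and 0.04. The adaptor Tyrobp went from 212±25.9 to 1346±179 CPM at wild-type day 5 (2.67±0.23, edgeR adjusted p = 9.7e-09) and from 299±111 to 824±95.7 CPM at P248L day 5 (1.46±0.22, adjusted p = 1.4e-05). The adaptor Fcer1g went from 188±27.1 to 764±69.1 CPM (2.02±0.28, adjusted p = 3.8e-06) and from 260.3±109 to 524±87.3 CPM (1.01±0.27, adjusted p = 0.0031). At day 2 both adaptors fell in the P248L line, Fcer1g by 1.04±0.27 and Tyrobp by 0.92±0.22 (adjusted p = 0.0057 and 0.0031). Neither fall passed without both libraries that stood apart or when only the compared groups were fitted (adjusted p = 0.094 to 0.11 and 0.061 to 0.074), and neither gene passed in the wild-type line (0.20±0.27 and 0.03±0.22, adjusted p = 0.59 and 0.94). The difference of responses passed for Fcer1g at day 2 (-1.24±0.38, adjusted p = 0.0498, lost under 22 of 27 alternatives with adjusted p = 0.051 to 0.14) and for Tyrobp at day 5 (-1.21±0.31, adjusted p = 0.0075).

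Syk, the kinase shared by the activating receptors, rose by 1.43±0.15 and 1.47±0.15 at day 5 in the wild-type and P248L line (edgeR adjusted p = 1.5e-07 and 1.3e-07) and was lower in the P248L line at every time (-0.55±0.15, -0.61±0.15 and -0.51±0.15, adjusted p = 0.014, 0.0040 and 0.0096). The untreated call was lost without wild-type untreated library 1 or 3 or P248L untreated library 1 (adjusted p up to 0.12), and the day 5 call without P248L day 5 library 3 and with no scaling (adjusted p = 0.056 to 0.076). Card9 rose at P248L day 5 (0.65±0.20, adjusted p = 0.0080) and did not pass at wild-type day 5 (0.21±0.20, adjusted p = 0.36). Ptpn6, the phosphatase SHP-1 recruited by inhibitory receptors, rose by 0.56±0.14 and 0.77±0.14 (adjusted p = 0.0013 and 7.2e-05). Inpp5d, the phosphatase SHIP-1, rose at wild-type day 5 (0.46±0.13, adjusted p = 0.0053), with 0.03±0.13 in the P248L line (adjusted p = 0.88), after a fall at day 2 in both lines (-0.56±0.13 and -0.81±0.14, adjusted p = 0.0025 and 1.6e-04). With no scaling beyond library size, the day 5 rises of Card9 in the P248L line and of Ptpn6 and Inpp5d in the wild-type line did not pass (adjusted p = 0.097, 0.41 and 0.92).

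Other signalling genes with large changes were Fgr, Src and Malt1. Of these, Src passed the filter only through wild-type day 5, so its rise there was fixed in advance. Fgr rose by 7.70±0.31 to 84.0±6.16 CPM at wild-type day 5, and in the P248L line it went from 0 reads untreated to 7.48±1.82 CPM at day 5 (line difference -3.48±0.23, adjusted p = 7.4e-09). Src held 2 reads untreated and 96 at day 5 in the wild-type line, and 2 and 12 in the P248L line, past the threshold in both (edgeR adjusted p = 4.2e-07 and 0.014), though in the P248L line not without P248L untreated library 1 or P248L day 5 library 2 (adjusted p up to 0.11). Malt1, a protease downstream of Card9, rose from 44.7±17.7 to 236±7.88 CPM at P248L day 5 (2.40±0.25) and by 2.12±0.25 at wild-type day 5, and the responses were not told apart (difference 0.28±0.34, adjusted p = 0.58). Between the lines 1 of 21 genes was higher and 8 lower in the P248L line at day 5, 1 and 7 at day 2, and 1 and 5 untreated, where 45.5%, 35.8% and 21.7% of all genes differed in either direction.

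Of 49 other C-type lectin genes 24 passed the filter. Some, among them Cd302, Klrb1b, Ly75, Cd209c and Clec2l, passed it only through wild-type day 5, and Clec4f only through P248L day 5. Their rise in that group, and the line difference there, were thus fixed in advance. The counts and medians below include these genes and describe the list only. At day 5, 18 rose and 1 fell in the wild-type line and 13 rose and none fell in the P248L line, with medians of 2.97 and 0.94, against the same shares of all genes as above (35.7% and 37.4%, then 34.8% and 36.2%). Of these, 1 fell in the P248L line at an unadjusted p under 0.05 in edgeR, and none by DESeq2. Between the lines at day 5, 4 were higher and 14 lower in the P248L line (median -0.89), against 22.8% and 22.7% of all genes. The genes with the largest fitted changes at wild-type day 5 were Cd302 (1 read untreated, 30.6±3.05 CPM at day 5), Klrb1b (1 read, 16.8±0.541 CPM), Mrc1 (log2 fold change 9.37±0.39) and Ly75 (2 reads, 3.35±0.848 CPM). Mrc1, the macrophage mannose receptor, reached 485±65.9 CPM in the wild-type and 38.5±7.91 CPM in the P248L line. Cd302 had no reads at P248L day 5, Klrb1b had 13, the scavenger lectin gene Colec12 had 3 against 1351 in the wild-type line, and Cd209c had none against 131. In the P248L line Clec4f, a galactose-binding lectin of liver macrophages, went from 0 reads to 5.18±0.694 CPM at day 5. Clec4b2, which lies within the Clec4 run of genes, was 1 of the 4 with more in the P248L line. At day 5 it held 26.5±3.9 CPM in the P248L line and 4.40±0.887 CPM in the wild-type line (2.59±0.26, edgeR adjusted p = 2.3e-07). Its neighbours Clec4a4 and Clec4b1 held at most 5 and 2 reads in any group.

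The 9 genes did not share 1 pattern over the 18 libraries. On log2 CPM, Clec4a3 and Clec4n had a Pearson r of 0.983, Clec4n and Clec7a 0.934 and Clec4a2 and Clec5a 0.898. Clec4e and Clec5a had an r of -0.797, and the neighbours Clec4d and Clec4e 0.0918. Genes with Gm, Rik, LOC, BC, Mir or accession-type names were left out of the ranking by r. Among the about 8941 genes with common names at 10 CPM or more in some group, those most like Clec4n were Fos (r = 0.997), Lyz2 (0.992) and Gipr (0.991). Most like Clec7a were Cog6, Nub1 and Mrc1 (0.983, 0.982 and 0.982), and most like Clec5a were Nt5e, Cish and Cited2 (0.979, 0.978 and 0.976). Clec4a2 was followed most closely by Actn1, Tbc1d8 and Pilrb2 (0.990, 0.987 and 0.986), Clec4a3 by Ampd3, Mcl1 and Tlr1 (0.991, 0.990 and 0.990) and Clec4a1 by Mmp19, Irf4 and Creb5 (0.981, 0.981 and 0.977). For Clec4d these were Dhrs1, Hist3h2a and Map1lc3b (0.970, 0.965 and 0.961), for Clec4e Satb1, Calcrl and Fads1 (0.961, 0.949 and 0.901) and for Clec12a Asns, Slc25a17 and Me2 (0.966, 0.927 and 0.927). The points are 18 libraries in 6 groups, so these values mostly follow the differences between groups.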

How the data were processed

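RNA of FDH cells was sequenced from 1000000 cells per condition. The submitters' processing notes name the build mm10 and the aligner STAR, with its version and the annotation not given in the sources used here. Raw read counts per gene were deposited by the authors for both strands together and for each strand. The counts of the gene strand were taken, since the opposite strand had 1.17 to 2.54% of reads in genes. Reads that fell in no single gene, 27.9 to 38.1% per library, were left out.

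The 18 libraries were grouped by labelled line and time. Genes were filtered with filterByExpr (minimum count 10), scaled with TMM and fitted in edgeR 4.0.16 (R 4.3.3) with group means and no block, using its quasi-likelihood F test. The common dispersion gave a biological coefficient of variation of 0.17. P-values were adjusted by Benjamini-Hochberg over all 11942 genes tested in each of 11 contrasts, and each SE was the log2 fold change, unsigned, divided by the root of F. The fit was tested on simulated data. Log2 CPM used a prior count of 2. Lengths are exon unions of GENCODE M21, and promoters come from RefSeq. Correlations name the 3 genes of highest r per member, among genes with common names. In the lists of signalling genes and other lectins, the 4 called genes of largest fitted change at day 5 were named, with 6 signalling genes always given, and genes with 3 or fewer reads in a group are given by their reads. One gene that this rule names is not reported here. The members and lists were chosen with earlier results of these data known. Alternatives were DESeq2 1.42.0, RLE, upper-quartile and no scaling, no filter, both strands, a replicate block, only the groups compared, each library left out, and both libraries that stood apart left out.

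Replicate numbers were checked for pairing by the correlation of deviations from group means. Among compared groups, only for P248L untreated and day 2 did every same-number pair exceed 0.1 (lowest 0.175). Wild-type day 2 and P248L day 5, which differ in line and time and were not compared, also met this rule (lowest 0.111). The check thus does not establish a pairing, and no label states a meaning for the numbers.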

Additional observations from a re-analysis of the deposited data

Results flagged for a closer look

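The responses of the lines differed past the threshold in edgeR for 7 results, each by a test of the difference itself. As log2 differences, P248L minus wild-type, these were at day 2 -1.02 for Clec4d, -0.63 for Clec4e and 1.17 for Clec7a. At day 5 they were 3.53 for Clec12a, 1.54 for Clec4a2, 3.08 for Clec4a1 and -0.96 for Clec4d. Those of Clec4e and Clec7a at day 2 and of Clec4a1 at day 5 were lost when any of several single libraries, given in the report, was left out. Those of Clec4e and Clec7a were also lost under other alternatives, given in the report. The differences for Clec12a, Clec4a2 and Clec4d passed under all alternatives run.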

How the results depend on the processing

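Of 2670 values of the 99 gene and contrast results under 28 alternatives, 2538 kept direction and side of the threshold, 72 lost and 47 gained a call, and 13 changed sign without a call. The cause was not tested. Sign changes were 0.0041 (DESeq2), 0.0043 (RLE), 0.078 and 0.047 (without P248L day 2 library 1 or 2) for Clec12a between lines at day 2, 0.18 (without wild-type day 2 library 1) for Clec4a1 in the same comparison, and 0.13 (no scaling), 0.056 (without wild-type untreated library 1) and 0.071 (without P248L day 5 library 2) for the day 5 response difference of Clec7a. For the day 2 response difference of Clec4a3 they were -0.35 (DESeq2), -0.33, -0.076 and -0.22 (without wild-type untreated library 2, wild-type day 2 library 3 or P248L day 2 library 3) and -0.24 (without both libraries that stood apart). Over all single libraries left out, these 4 results ranged from -0.30 to 0.078 (Clec12a), -0.66 to 0.18 (Clec4a1), -0.27 to 0.071 (Clec7a) and -0.33 to 0.81 (Clec4a3). With only the groups compared, 1657 genes passed at P248L day 2, 1205 between untreated lines and 727 for the day 2 response difference, where 1 member passed, and 5 with DESeq2. Without both libraries that stood apart 7 members differed between lines at day 2. The share of all genes under that setting is not given. With 1 library left out, 1524 to 4535 genes differed between untreated lines, 788 to 1915 in day 2 response and 1 to 4 members in day 2 response.

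With the replicate block in all groups, the calls named in the report for Clec12a, Clec5a and Clec4n changed and no other member's did. With the block in P248L untreated and day 2 alone, added after seeing the data, 7 members and 3479 genes passed, against 8 and 4775. Clec4a1 was filtered out there and no other member's call changed. With no scaling the median of all genes shifted by -0.17 (wild-type day 2), -0.44 (wild-type day 5), -0.27 (wild-type day 5 against day 2), -0.10, -0.22 and -0.12 (the same in P248L), 0.12 (lines at day 5) and 0.21 (day 5 response difference). With RLE it shifted by 0.12 and 0.11 at wild-type day 5 against untreated and day 2, and with upper-quartile factors by -0.10 at P248L day 2. Depth limits Clec4a1, Clec4a3 and Clec4n before day 5.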
